A study of Arabidopsis thaliana with 12 samples.

Results

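Chloroplast-encoded genes were taken as all loci of the count table whose identifier begins with ArthC, the prefix of loci on the plastid genome. This gave 125 of the 38618 loci in the table, with 84 protein-coding loci, 34 tRNA loci and 7 rRNA loci. The plastid identity of all 125 was taken from the annotation of the *A. thaliana* genome (TAIR10.1), which places each of them on the plastid chromosome of 154478 bases. A further 4 plastid loci are spelled with a lower-case c, among them the full-length *ycf1* (Arthcp087), and were left outside the group. RNAseq was available for 12 libraries from leaves of *A. thaliana* Col-0, with 4 biological replicates each of PO (10 μM progesterone), TO (10 μM testosterone) and DMSO (0.12% DMSO as mock treatment), harvested 1 h after the addition. The progesterone was dissolved in 0.12% DMSO, the level of the mock treatment, whereas the sources used here give no DMSO level for the TO libraries. By the treatment protocol the plants were transferred to a poor nutrient medium at an age of 7 days and adapted to it for 2 days, whereas the growth protocol names seedlings of 10 days. Progesterone and testosterone share the ring system with a keto group, and differ in the side group of the last ring, an acetyl group in progesterone and a hydroxyl group in testosterone.

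The plastid genome descends from that of a cyanobacterium and kept genes for the photosystems, the cytochrome b6f complex, the ATP synthase, the NADH dehydrogenase-like complex (NDH), the large subunit of Rubisco and the plastid ribosome, with its rRNAs and tRNAs. Most of these genes lie in clusters that are transcribed together by a bacterial-type RNA polymerase, whose core subunits are encoded by the plastid *rpo* genes, or by a phage-type polymerase encoded in the nucleus. In contrast to nuclear mRNA, plastid RNA carries no stable poly(A) tail, and short A-rich tails mark it for degradation. The libraries were prepared after selection of RNA on Oligo(dT) beads, so the counts describe the plastid RNA that passed this selection, and less plastid RNA per cell, fewer chloroplasts and a lower recovery on the beads cannot be told apart.

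The libraries held between 41036335 and 63445014 counts, so that 3 counts, taken as the limit of detection, correspond to 0.0470 to 0.0723 CPM (counts per 1000000 counts, after scaling of the libraries with TMM factors, which correct for their composition). The labelled tissue was checked with markers. The sum of 5 leaf markers was 25454 to 28431 CPM in PO, 22328 to 26869 CPM in TO and 25403 to 32753 CPM in DMSO. The sum of 4 root markers was 0.0660 to 0.972, 1.04 to 2.12 and 0.128 to 1.19 CPM in PO, TO and DMSO, and that of 3 flower markers 4.91 to 15.2, 4.68 to 13.5 and 2.30 to 12.8 CPM. None of the 9 markers that passed the filter was called by edgeR in any comparison. At an unadjusted p under 0.05, however, 2 of the 5 leaf markers were lower in PO than in DMSO, against 6.16% of all tested loci. They were AT1G29920 (logFC −0.66, the log2 fold change, edgeR adjusted p = 0.217) and AT3G54890 (logFC −0.33, edgeR adjusted p = 0.308), both nuclear genes for chlorophyll-binding proteins. Of the 2 root markers that passed the filter, 1 was lower in PO than in TO, against 4.37% of all tested loci. The logFC was below 0 for 4 of the 5 leaf markers in PO and for all 5 in TO against DMSO. The part of the markers in the plastid values was not tested. Of the 125 plastid loci, 116 passed the filter on low counts and were tested, and the other 9 were all tRNA loci with at most 39 counts in any library. The plastid genome contains an inverted repeat of 26264 bases in 2 copies, and 31 of the 125 loci lie in it. For the 8 identical locus pairs with at least 1000 counts in all, the summed counts of the copies differed by a median of 1.09% and at most by 11.2% (*rpl2*), so a read from the repeat entered at both copies or was divided evenly, and the copies are not independent. A further 8 loci overlap a neighbour, among them *psbD* and *psbC*, *atpB* and *atpE*, and *rps3* and *rpl22*, and both *rps12* entries, which reach into the repeat, share an exon.

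Plastid loci varied more between replicates than other loci. The median standard deviation (SD) within a group was 0.47 on the log2 scale for the 116 plastid loci, against 0.21 for all 23203 tested loci. Of the 116 loci, 37 had their lowest level in TO replicate 1, 31 their highest level in TO replicate 4, and 33 their highest level in DMSO replicate 1. These 3 libraries therefore stood apart for plastid RNA, and several results are given with and without them. In the heat map of all 116 loci, TO replicate 1 shows low rRNA and photosynthesis loci, TO replicate 4 shows high rRNA with low ribosomal protein loci, and DMSO replicate 1 shows single bright tRNA and NDH loci.

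**Figure D1:**
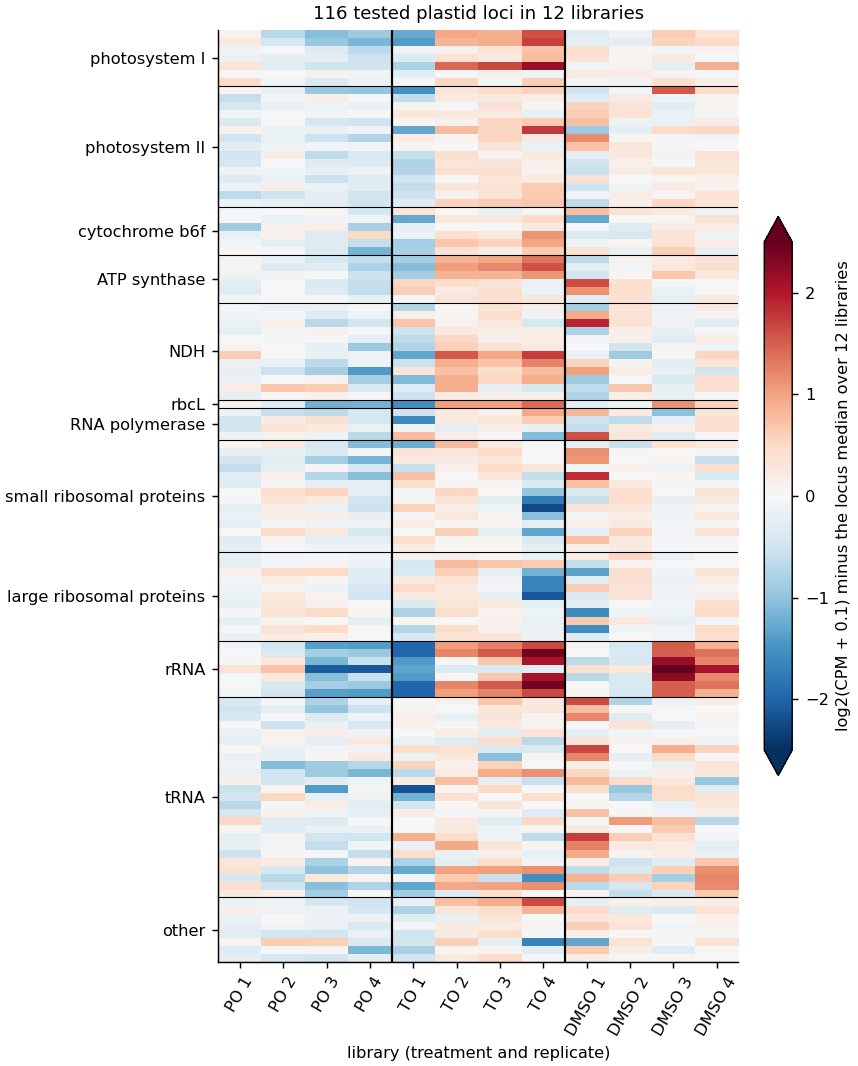
Levels of the 116 tested plastid loci in the 12 libraries, grouped by role from top to bottom, as log2(CPM + 0.1) minus the median of the locus (colour scale from −2.5 in blue to 2.5 in red). The rRNA block changes colour within the TO group and within the DMSO group, and is blue or pale in most loci of PO replicates 3 and 4.

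The locus with the highest level per length was *psbM*, which encodes a small membrane subunit of photosystem II. In DMSO, *psbM* had 7549 ± 1888 CPM per kilobase of exon (SD, n = 4), and its lowest DMSO library (5762) was above the highest DMSO library of any other plastid locus, such as *rpl16* (1980). *psbM* ranked 131st of all loci of the table by mean count, although its coding sequence (positions 28707 to 28811, minus strand) is only 105 bases long. Next in order were *rpl16* (1530 CPM per kilobase), *rpl32* (1288) and *rps12* (1170), which encode ribosomal proteins and whose DMSO ranges overlapped, and then *psaJ* (749), a small subunit of photosystem I. Short loci are favoured by this measure, since reads of 150 bases extend past their ends, but *psbM* remained first when 150 bases were added to each exon length (3108 CPM per kilobase), and *rpl32* then ranked 5th and *psaJ* 14th.

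The bases that follow *psbM* are shown because the libraries were selected with Oligo(dT). Within the 300 bases downstream of the stop codon or RNA end, a run of 13 A on the transcribed strand occurred at 5 of 105 loci (4.76% of such windows, with each identical pair counted once), and one such window belongs to *psbM*. The 30 bases around such a run are printed 5′ to 3′ as read from the TAIR10.1 plastid sequence of RefSeq, with the A run in capitals. The printed bases lie next to *psbM* (positions 28664 to 28693, minus strand, with the run starting 22 bases after the stop codon), *ndhC* (49950 to 49979, minus strand), *psbI* (7897 to 7926, plus strand, a run also within the window of *trnS*) and *trnP* (66299 to 66328, minus strand).
psbM: ttactatcAAAAAAAAAAAAAgatttcaat
ndhC: acaataatAAAAAAAAAAAAAgtaaaaaaa
psbI: ggttccatAAAAAAAAAAAAAggcttgaaa
trnP: ttttttagAAAAAAAAAAAAAgaaaaacgc
The 5 loci with such a run had 90.1 to 7549 CPM per kilobase in DMSO. The 18 loci with at least 9 A in a row had a median of 62.6 CPM per kilobase and the 87 others had a median of 17.1, but the ranges overlapped (1.53 to 7549 against 0.815 to 1530). Over the 105 loci the rank correlation of level with the length of the longest downstream A run was 0.20, which is weak. Whether the run bears on the level was not tested.

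Levels per length differed widely within each complex. In the photosystem II group (15 loci), the range in DMSO ran from 9.92 CPM per kilobase for *psbH* to *psbM*, with a median of 30.8. The NDH group (12 loci) ranged from 1.21 for *ndhE* to 301 for *ndhK*, and the RNA polymerase group (4 loci) from 0.815 for *rpoC2* to 83.5 for *rpoA*. The ribosomal proteins of the large subunit had the highest median of the protein-coding groups (213 CPM per kilobase over 11 loci). The 7 rRNA loci had a median of 512, and the tRNA loci had a median of 12.0 over 25 tested loci.

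**Figure D2:**
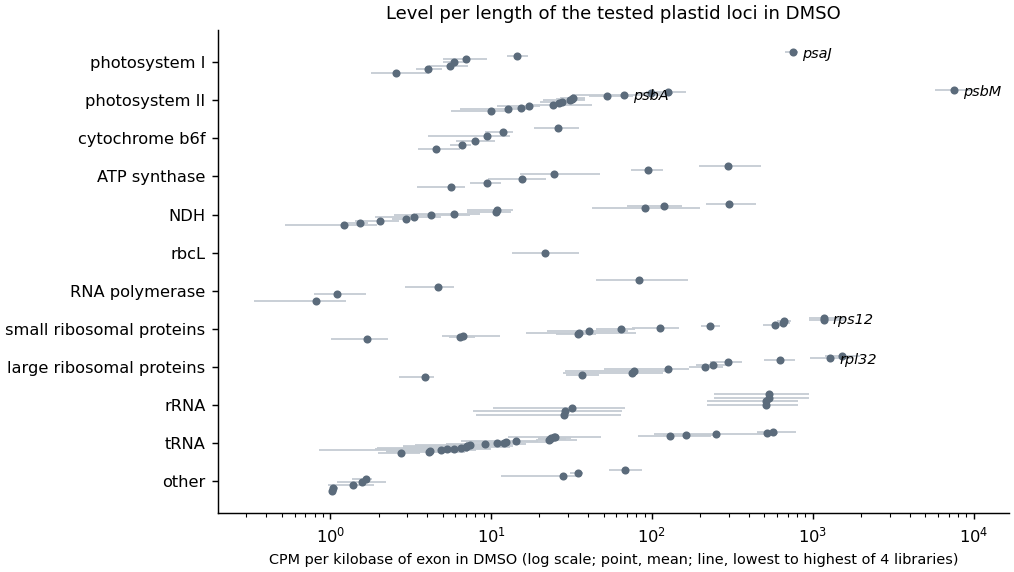
Level per length of the 116 tested plastid loci in DMSO, as CPM per kilobase of exon on a log axis, by role; points are means and lines span the 4 DMSO libraries. *psbM* lies apart from all other loci at 7549, and *psaJ* lies apart from the other photosystem I loci at 749.

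The plastid share of all counts was lower in PO than in DMSO. Plastid loci made up 0.724, 0.744, 0.628 and 0.545% of counts in the PO libraries, 0.675, 1.23, 1.29 and 1.57% in the TO libraries, and 0.984, 0.790, 1.21 and 1.11% in the DMSO libraries. All 4 PO libraries lay below all 4 DMSO libraries, and the TO libraries enclosed the whole DMSO range. The mean was 0.660 ± 0.0921% in PO and 1.02 ± 0.179% in DMSO (SD, n = 4 each), a difference of −0.361 percentage points with an interval of −0.661 to −0.0455 at a confidence of 97.1%. The two-sided exact permutation test gave p = 0.0286, the smallest value that 4 against 4 libraries allow, and p = 0.257 after Benjamini-Hochberg adjustment over 9 share comparisons, so the difference did not pass the correction. TO averaged 1.19 ± 0.376% and did not pass against DMSO (difference 0.171, interval −0.532 to 0.783, exact permutation p = 0.429). When each library was left out in turn, this difference was 0.0436 to 0.343 (exact permutation p = 0.0571 to 0.8). The value of 0.343 came without TO replicate 1, where the other TO libraries lay above all DMSO libraries. Its p of 0.0571 in the exact permutation test is the smallest that 3 against 4 libraries allow. PO minus TO was −0.532 percentage points (interval −1.03 to 0.0696, exact permutation p = 0.0857), and PO replicates 1 and 2 lay above TO replicate 1. With each library left out in turn, PO minus TO was −0.704 to −0.405 (exact permutation p = 0.0571 to 0.171), and −0.704 came without TO replicate 1.

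With both copies of each repeat pair counted, most of the difference in share came from rRNA. The 7 rRNA loci held 0.177% of counts on average in PO and 0.439% in DMSO, which was 72.5% of the difference between these groups. Without the rRNA loci the PO and DMSO difference was −0.0992 percentage points (exact permutation p = 0.143), and for the protein-coding loci alone the mean was 0.473 ± 0.0489% in PO, 0.540 ± 0.10% in TO and 0.568 ± 0.0932% in DMSO. The protein-coding difference of PO and DMSO was −0.0955 percentage points (interval −0.273 to 0.0577, exact permutation p = 0.143), and PO replicates 2 and 3 lay within the DMSO range. All rRNA loci lie in the repeat, and all except the 5S locus are listed as pairs. The plastid share was therefore also computed with each pair counted once, and the PO and DMSO difference was then −0.217 percentage points (exact permutation p = 0.0286). The rRNA part of this smaller difference was not computed, and the 72.5% holds only with both copies counted.

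**Figure D3:**
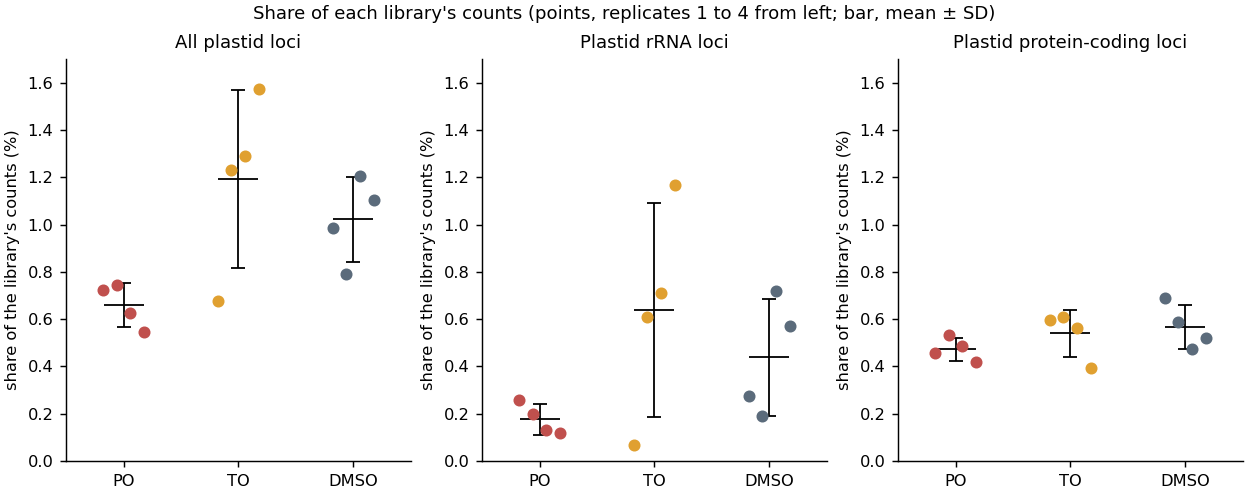
Share of each library's counts on all plastid loci, on plastid rRNA loci and on plastid protein-coding loci, in percent, for PO, TO and DMSO; points are libraries and bars are mean ± SD (n = 4). The 4 PO points lie below the 4 DMSO points for all plastid loci, and the groups overlap in the other panels.

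The mitochondrial share was correlated with the plastid share over the libraries when the rRNA loci were included. Mitochondrial loci held 0.0229 ± 0.00206% of counts in PO, 0.0325 ± 0.0105% in TO and 0.0289 ± 0.00469% in DMSO, and none of the 3 comparisons passed (exact permutation p = 0.0857 for PO and DMSO, 0.543 for TO and DMSO, 0.143 for PO and TO). Over the 12 libraries Pearson's r of both shares was 0.90 (permutation p = 1.2e-04, adjusted over 3 relations 3.6e-04) and Spearman's rho was 0.80 (permutation p = 0.00279, adjusted 0.00837). Without TO replicates 3 and 4, the libraries farthest from the median on the mitochondrial axis, r was 0.79, and with the group means removed r was 0.87. However, the mitochondrial rRNA loci held 72.6 to 84.2% of the mitochondrial counts, and 18.1% of the exon of the plastid 23S rRNA has a copy of at least 99% identity in the mitochondrial genome. With the rRNA loci left out of both shares, r was 0.40 (permutation p = 0.196, adjusted 0.293) and rho was 0.47 (permutation p = 0.127, adjusted 0.191), and without TO replicates 2 and 3 this r was 0.26. How far shared sequence enters the relation was not tested. The total count of the library had an r of −0.26 and a rho of −0.13 with the plastid share (permutation p = 0.419 and 0.698, adjusted 0.419 and 0.698), and without PO replicate 2 and TO replicate 3 r was 0.02.

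The rRNAs form the core of the plastid ribosome, and the 23S, 16S, 4.5S and 5S rRNAs come from the same transcript. The 23S rRNA (ArthCr087, positions 104691 to 107500 and its copy) had 813, 628, 445 and 422 CPM in PO, 205, 1888, 2347 and 4297 CPM in TO, and 801, 620.4, 2280 and 2064 CPM in DMSO. PO replicates 1 and 2 were level with DMSO replicates 1 and 2, and the TO libraries lay both below and above all others. The logFC of PO and DMSO was −1.32 ± 0.63 (SE, edgeR adjusted p = 0.424), that of TO and DMSO 0.60 ± 0.62 (edgeR adjusted p = 0.832), and that of PO and TO −1.92 ± 0.64 (edgeR adjusted p = 0.628).

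The 5S rRNA (ArthCr091, positions 130580 to 130700, minus strand) had the lowest logFC of all plastid loci against DMSO in both treatments, where a negative sign stands for fewer counts in the libraries labelled PO or TO than in those labelled DMSO. It had 1.34, 1.74, 0.165 and 0.161 CPM in PO, 0.348, 0.788, 0.771 and 0.831 CPM in TO, and 1.39, 1.25, 8.21 and 4.58 CPM in DMSO. The TO libraries lay below all DMSO libraries, and DMSO replicates 3 and 4 alone set the high DMSO mean, whereas PO replicates 1 and 2 were within the range of DMSO replicates 1 and 2 or just above. The logFC was −2.15 ± 0.72 in PO (SE, edgeR adjusted p = 0.281) and −2.49 ± 0.75 in TO (edgeR adjusted p = 0.245), with the same DMSO libraries in both, and PO against TO was 0.34 ± 0.76 (edgeR adjusted p = 0.925). The 5S locus lies in the inverted repeat, but no identical copy is among the plastid loci of the count table. PO replicates 3 and 4 were near the limit of detection for this locus (0.0495 and 0.0688 CPM in these libraries), so its logFC in PO rests on few counts. Its sequence in TAIR10.1 is given because it is the locus with the largest fold change, while its levels were at most 8.21 CPM, far below the 23S rRNA.
5S rRNA: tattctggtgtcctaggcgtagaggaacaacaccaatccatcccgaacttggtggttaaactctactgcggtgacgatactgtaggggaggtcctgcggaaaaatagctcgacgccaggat

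In PO against DMSO, no plastid locus was called by edgeR, a test for replicated count data, at an adjusted p under 0.05 (0.168% of all 23203 tested loci were called), and the smallest adjusted p was 0.203 for *clpP*. At an unadjusted p under 0.05, 33 of the 116 plastid loci were lower and 0 were higher, which is 28.4% lower against 6.16% lower and 5.96% higher over all tested loci. The median logFC of the plastid loci was −0.41, against −0.01 for all loci, and 100 of 116 were below 0. The plastid loci share the same libraries and often a transcript, so these numbers do not count independent results. Leaving out DMSO replicate 1 gave 18 instead of 33 such loci with a median of −0.28. Leaving out PO replicate 3 gave 18 (median −0.40), and leaving out PO replicate 4 gave 21 (median −0.35). When libraries were scaled to their plastid protein-coding counts, the median of the plastid loci was −0.13 and that of all loci was 0.27. At this scaling 11 plastid loci were lower at an unadjusted p under 0.05. A scaling shifts all loci nearly alike, so the gap of 0.40 between these medians cannot test the shift. For these alternatives the share of all loci at an unadjusted p under 0.05 was not computed. DESeq2 called *clpP* (1 of 112 plastid loci, 1.44% of the loci it tested), with a logFC of −0.48 and an adjusted p of 0.0476.

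*clpP* (positions 69910 to 71882, minus strand, 3 exons) encodes the proteolytic subunit of the Clp protease of the stroma. It had 28.6, 31.6, 29.4 and 26.3 CPM in PO, 31.8, 38.9, 38.8 and 35.1 CPM in TO, and 51.5, 41.9, 32.1 and 35.7 CPM in DMSO. The PO libraries lay below all DMSO libraries and below all TO libraries, with PO replicate 2 and DMSO replicate 3 close together. The logFC of PO and DMSO was −0.48 ± 0.13 (SE, 95% interval −0.75 to −0.20, edgeR adjusted p = 0.203).

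The direction was shared by most roles, although loci share libraries and often transcripts and are not replicates. All 15 photosystem II loci, all 7 photosystem I loci, all 6 ATP synthase loci and all 7 rRNA loci had a logFC below 0 in PO, with medians of −0.42, −0.46, −0.40 and −1.40. The 16S, 23S and 4.5S rRNAs each enter with both identical copies. For the tRNAs, 24 of 25 tested loci were below 0 (median −0.57). For NDH this was 8 of 12 (median −0.06), and for the ribosomal proteins it was 12 of 14 of the small subunit (median −0.31) and 5 of 11 of the large subunit (median 0.01), so that the last group had no common direction. The largest positive value was 0.37 ± 0.33 for *rpl23* (SE, edgeR adjusted p = 0.672).

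Among the photosystem II genes, *psbA*, which encodes the D1 protein of the reaction centre, had 50.9, 41.6, 24.9 and 24.4 CPM in PO, 16.8, 59.4, 66.9 and 71.2 CPM in TO, and 33.8, 45.3, 140 and 66.8 CPM in DMSO. DMSO replicate 3 stood above the rest, and PO replicates 1 and 2 lay within the DMSO range. *psbB*, which encodes the inner antenna protein CP47, had 29.1, 32.6, 25.2 and 29.1 CPM in PO, 26.4, 36.8, 44.8 and 43.1 CPM in TO, and 47.4, 35.9, 38.1 and 39.7 CPM in DMSO. PO and DMSO did not overlap for *psbB*, with a logFC of −0.48 ± 0.15 (SE, edgeR adjusted p = 0.237). *psbM* had 646, 682, 646 and 677 CPM in PO, 816, 800, 789 and 595 CPM in TO, and 1036, 870, 605 and 660 CPM in DMSO, and its logFC in PO of −0.26 ± 0.16 (SE, edgeR adjusted p = 0.512) was within the spread of the DMSO libraries.

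Without overlap between the PO and DMSO libraries, 12 plastid loci were lower (10.3% of 116, against 2.72% of all tested loci) and 0 were higher (against 2.85%). They were *rps2*, *psbZ*, *psaI*, *psbJ*, *clpP*, *psbB*, *psbN*, both copies of *ycf2* and the tRNA loci *trnK*, *trnY* and *trnS* (ArthCt117). *psbZ*, a small photosystem II subunit, had 2.41, 3.06, 2.39 and 2.04 CPM in PO against 8.01, 3.56, 3.35 and 3.30 CPM in DMSO, with DMSO replicate 1 far above the others. In none of these loci did edgeR give an adjusted p under 0.05, and DESeq2 gave one only for *clpP*.

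*rbcL*, which encodes the large subunit of Rubisco, the enzyme that fixes CO2, had 24.6, 18.1, 9.77 and 9.98 CPM in PO, 7.83, 47.0, 46.8 and 60.8 CPM in TO, and 19.5, 21.0, 50.4 and 33.9 CPM in DMSO. PO replicates 3 and 4 and TO replicate 1 were lowest, and the other TO libraries were among the highest. The logFC was −1.0 ± 0.49 in PO against DMSO (SE, edgeR adjusted p = 0.438) and 0.38 ± 0.49 in TO against DMSO (edgeR adjusted p = 0.873).

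**Figure D4:**
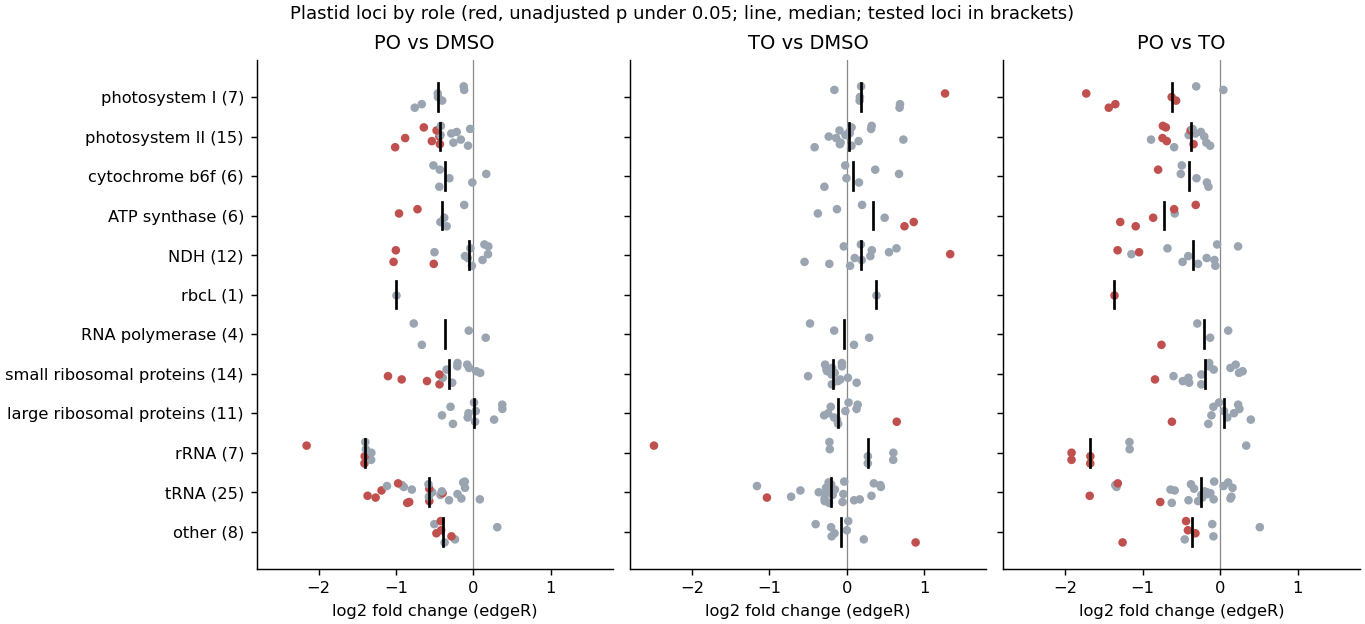
Log2 fold change (edgeR) of the 116 tested plastid loci by role in PO against DMSO, TO against DMSO and PO against TO; points are loci, black lines are medians, and red marks an unadjusted p under 0.05. No locus passed at an adjusted p under 0.05, the red points of the left and right panels all lie below 0, and the rRNA medians are −1.40, 0.27 and −1.68.

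In TO against DMSO, edgeR called 0 plastid loci (0.284% of all tested loci), with a smallest adjusted p of 0.245 for the 5S rRNA, and DESeq2 called 0 as well (1.33% of the loci it tested). At an unadjusted p under 0.05, 6 loci were higher (5.17% of 116, against 4.64% of all tested loci), which is near the share of all loci, and 2 were lower (1.72%, against 4.87% of all tested loci). The 6 were *matK*, *ycf4*, *rpl20*, *ndhE*, *atpA* and *atpF*, and the 2 were the 5S rRNA and *trnY*. The median logFC was −0.04, and 53 of 116 loci were above 0. Without TO replicate 1, 18 of 119 plastid loci were higher at an unadjusted p under 0.05, whereas without TO replicate 4 there were 0 such loci. The share of all loci at this unadjusted p was not computed for these settings. Without TO replicate 1 edgeR also called *atpF* (logFC 1.19, adjusted p = 0.0424), where 62 of all 23464 tested loci were called. The 5S rRNA was also the only locus whose TO and DMSO libraries did not overlap (lower, as in 2.48% of all tested loci), and 0 plastid loci were higher without overlap (against 2.9%).

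*atpF* and *atpA* encode subunits of the ATP synthase. *atpA* had 7.90, 7.32, 6.17 and 5.48 CPM in PO, 4.68, 15.2, 16.2 and 21.2 CPM in TO, and 5.26, 8.88, 9.66 and 10.4 CPM in DMSO. *atpF* had 5.04, 3.83, 3.96 and 2.73 CPM in PO, 2.2, 10.0, 11.2 and 14.7 CPM in TO, and 4.10, 4.61, 5.84 and 6.39 CPM in DMSO. In both loci TO replicates 2, 3 and 4 were above every other library and TO replicate 1 was below every other library. The logFC of TO and DMSO was 0.75 ± 0.34 for *atpA* (SE, edgeR adjusted p = 0.512) and 0.86 ± 0.39 for *atpF* (edgeR adjusted p = 0.513).

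*psaB*, which encodes a reaction centre protein of photosystem I, showed the same order with 14.5, 8.37, 6.45 and 7.25 CPM in PO, 5.61, 26.7, 25.3 and 41.3 CPM in TO, and 11.0, 12.6, 20.8 and 17.3 CPM in DMSO. *ycf4*, which is needed for the assembly of photosystem I, had 1.52, 0.972, 0.808 and 0.803 CPM in PO, 0.638, 3.37, 3.95 and 5.68 CPM in TO, and 1.10, 1.27, 1.00 and 2.29 CPM in DMSO. *matK*, which encodes a maturase for intron splicing, had 2.17, 2.21, 1.75 and 1.67 CPM in PO, 2.11, 4.14, 4.65 and 7.82 CPM in TO, and 2.06, 2.64, 2.74 and 2.69 CPM in DMSO. In *psaB* and *ycf4* TO replicate 1 was the lowest library, and in all 3 loci the other 3 TO libraries were the highest.

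In PO against TO, the comparison of both steroids at the same dose and time, edgeR called 0 plastid loci (0% of all tested loci) with a smallest adjusted p of 0.628, and DESeq2 called 0 (0.0258% of the loci it tested) with a smallest adjusted p of 0.0623 for *matK*. At an unadjusted p under 0.05, 34 of 116 loci were lower in PO (29.3%, against 4.37% lower and 3.31% higher over all tested loci) and 0 were higher. The median logFC was −0.33, and 96 of 116 loci were below 0. When each library was left out in turn the number of such loci was 24 to 50, with the 50 without TO replicate 1, and scaling to the plastid protein-coding counts gave 22 lower and 1 higher. For these settings too the share of all loci at this unadjusted p was not computed. The comparisons of PO with DMSO and with TO share the PO libraries, and here too the loci are not replicates. The logFC of *matK* was −1.26 ± 0.30 (SE, 95% interval −1.90 to −0.62, edgeR adjusted p = 0.628), that of *ycf4* −1.73 ± 0.49 (interval −2.78 to −0.68, edgeR adjusted p = 0.628) and that of *psaB* −1.44 ± 0.44 (interval −2.38 to −0.50, edgeR adjusted p = 0.628). For *psbM* the difference was −0.18 (interval −0.51 to 0.15) and for *psaJ* 0.04 (interval −0.17 to 0.25), so no difference was shown in these loci within these limits. Without overlap between the PO and TO libraries, 11 loci were lower in PO (9.48% of 116, against 2.1% of all tested loci) and 0 were higher (against 2.05%). Among the 11 were *psbD*, *psbZ*, *psbI*, *rps14* and *ndhI*.

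By role, the medians of PO against TO were −1.68 for the rRNAs, −0.73 for the ATP synthase, −0.63 for photosystem I, −0.40 for the cytochrome b6f complex and −0.38 for photosystem II. They were −0.19 and 0.05 for the small and large ribosomal subunit proteins. The numbers of loci below 0 were 15 of 15 for photosystem II, 6 of 6 each for the cytochrome b6f complex and the ATP synthase, and 5 of 11 for the proteins of the large ribosomal subunit.

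**Figure D5:**
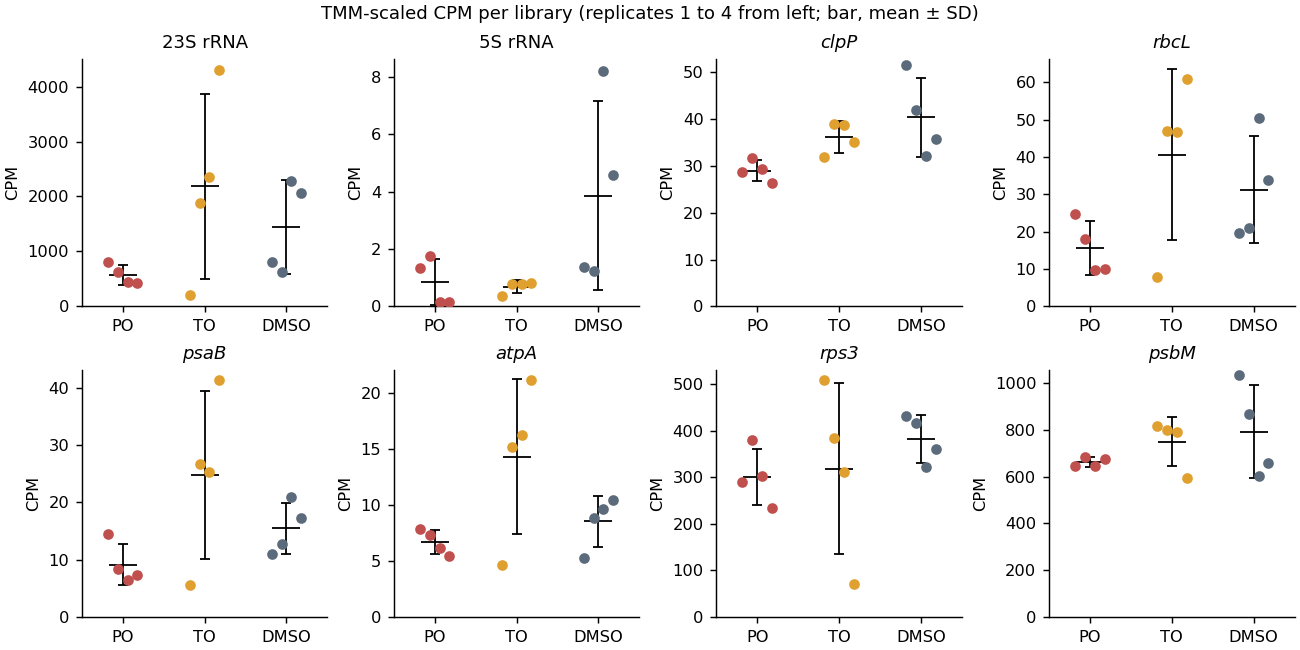
TMM-scaled CPM of 8 plastid loci in PO, TO and DMSO; points are libraries in replicate order, bars are mean ± SD (n = 4). *clpP* is the panel in which the 4 PO points lie below all others, and TO replicate 1 and TO replicate 4 mark the ends of the TO range for 23S rRNA, *rbcL*, *psaB*, *atpA* and *rps3*.

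The spread within TO had opposite signs for different roles. In TO replicate 4, relative to the median library, the median over the 7 rRNA loci was 2.05 on the log2 scale and that over the 47 photosynthesis loci 0.48, whereas that over the 25 ribosomal protein loci was −0.22. In TO replicate 1 the same medians were −1.97, −0.53 and 0.06. In the cluster that runs from *rps19* to *rpoA*, 8 of 9 loci had their lowest level of all 12 libraries in TO replicate 4. *rps3* of this cluster had 289, 379, 302 and 233 CPM in PO, 509, 384, 311 and 70.9 CPM in TO, and 432, 416, 322 and 360 CPM in DMSO, so TO replicate 4 was 5.41-fold below the median of the other TO libraries. *rpl16* (3.72-fold) and *rpl22* (5.06-fold) showed the same, and the full-length *ycf1* outside the group had 130 CPM in TO replicate 4 and at least 348 CPM in every other library. The neighbouring *rpl2* (1.38-fold) and *rpl23* (1.17-fold) in the inverted repeat did not have their lowest level in TO replicate 4.

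DMSO replicate 1 was high in another set of loci. *ndhC*, an NDH subunit gene, had 17.2, 21.0, 11.9 and 14.0 CPM in PO, 31.7, 20.6, 23.3 and 14.2 CPM in TO, and 72.5, 24.9, 18 and 15.4 CPM in DMSO. *rpoA*, which encodes the alpha subunit of the plastid RNA polymerase, had 50.2, 58.4, 50.7 and 34.6 CPM in PO, 94.2, 61.8, 56.2 and 25.8 CPM in TO, and 165, 67.2, 44.4 and 53.5 CPM in DMSO. The tRNA locus *trnH* had 9.73, 12.4, 7.37 and 11.0 CPM in PO, 13.0, 13.8, 20.6 and 15.2 CPM in TO, and 39.8, 7.51, 11.5 and 14.2 CPM in DMSO. In these loci a single DMSO library set the DMSO mean, and the other DMSO libraries lay within the ranges of PO and TO or close to them.

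The nuclear genes that transcribe and process plastid RNA were compared as a list of 30 genes with the sigma factors, both plastid phage-type polymerases, the polymerase-associated proteins (PAPs), plastid nucleases and RNA-stabilising proteins. All 30 were tested, and edgeR called 0 in PO against DMSO, 0 in TO against DMSO and 0 in PO against TO. Their median logFC was 0.0043, −0.0024 and 0.043 in these comparisons, and 15, 15 and 17 of the 30 were above 0. At an unadjusted p under 0.05, PO against DMSO had 2 lower genes, *PAP12* and *PAP10*, TO against DMSO had *RPOTmp* higher and *PAP12* lower, and PO against TO had *SIG1* and *HCF107* lower. These are 6.67% lower in PO against DMSO (6.16% of all tested loci), 3.33% each higher and lower in TO against DMSO (4.64 and 4.87%) and 6.67% lower in PO against TO (4.37%). *PAP12*, a subunit of the plastid-encoded polymerase complex, had 48.5, 51.9, 48.5 and 43.5 CPM in PO, 53.6, 48.2, 49.7 and 48.8 CPM in TO, and 65.3, 60.2, 62.8 and 53.7 CPM in DMSO, with all PO and TO libraries below all DMSO libraries, as in 2.72% of all tested loci for PO and 2.48% for TO. Its logFC was −0.33 ± 0.08 in PO (SE, edgeR adjusted p = 0.171) and −0.27 ± 0.08 in TO (edgeR adjusted p = 0.244), with the same DMSO libraries in both.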

How the data were processed

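RNA of leaves was isolated with TRIzol, enriched on Oligo(dT) beads and sequenced as strand-specific read pairs of 150 bases. Per the methods and the submitters' processing notes, FastQC 0.11.9 and fastp 0.23.2 served for quality control and trimming, HISAT2 2.2.1 for alignment against TAIR10.1 and SAMtools 1.11 for sorting. The authors deposited the whole-number counts per locus that featureCounts 2.0.1 gave, without normalization. The options for strand, overlapping loci, multiply mapped reads and read pairs are not given in the sources used here. Between 67.8 and 72.3% of the counts from 1 to 20 were even, so both reads of a pair may have been counted. Every column belonged to a sample.

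Libraries were grouped by the treatment of the labels. Of 38618 loci, 38292 matched the RefSeq annotation of TAIR10.1. Mitochondrial loci (60) have the prefix DA397, whereas the analysis plan had assumed another prefix. The test was the quasi-likelihood test of edgeR 4.0.16, run in R 4.3.3 (filterByExpr with a minimum count of 10, 23203 loci, TMM scaling, model with a treatment term on all 12 libraries, Benjamini-Hochberg adjustment over all tested loci). An SE is the logFC over the root of its F value, and intervals of a logFC have a confidence of 95%. CPM are TMM-scaled. Shares were compared with two-sided exact permutation tests over 70 arrangements, whose inversion gave the 97.1% intervals. Correlations had 100000 permutations. Counting error of a share was at most 0.00345 percentage points (95% Wilson interval) and covers counting only. Identical copies were plastid loci with the same exon sequence. Copies in the nuclear and mitochondrial genomes were found with blastn 2.17.0 (at least 99% identity over at least 100 bases). Other steps used Python 3.11.15, numpy 2.4.6, scipy 1.17.1, pandas 2.3.3 and matplotlib 3.10.9. No library pair of a group had counts that agreed within sampling noise. The replicates are called biological, and no source used here says more on separate cultures, so p-values measure the spread between these libraries.

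The members and gene lists were chosen with earlier results of these data known. Genes named are plastid loci called by edgeR or DESeq2, the 5 largest logFC in each direction in PO and TO, the 10 highest levels per exon length in DMSO, the highest and lowest locus of each role, the 5S rRNA, and repeat or overlapping loci, of which not all are described. *psbA*, *psbB*, *psbZ*, *psbD*, *psbI*, *ndhI*, *rps14*, *rbcL*, *psaB*, *atpF*, *ndhC*, *rpoA*, *trnH* and the loci without overlap were chosen with their values in view. The edgeR step was tested on simulated counts with known changes. Alternatives were DESeq2 1.42.0, other scalings and filters, fewer libraries, each library left out, a replicate block, and other denominators and lengths.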

Additional observations from a re-analysis of the deposited data

Results flagged for a closer look

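A library was singled out when its gap to the nearest other library of its group relative to the range of the 4 libraries exceeded Dixon's critical value. This was examined in 99 groups of values, and 5 values from 4 libraries were singled out. Many of these loci were chosen by their levels or fold changes, and they share libraries and often transcripts. The number that chance would give is therefore not known, and the values are listed as description only. *psbM* had 595 CPM in TO replicate 4, where the remaining TO libraries had 789 to 816 CPM. *ndhC* had 72.5 CPM in DMSO replicate 1, where the remaining DMSO libraries had 15.4 to 24.9 CPM. *ndhE*, an NDH subunit gene near the lower end of the plastid levels, had 0.642 CPM in PO replicate 1 and 0.330 to 0.376 CPM in the other PO libraries. The 5S rRNA had 0.348 CPM in TO replicate 1 and 0.771 to 0.831 CPM in the other TO libraries. *matK* had 2.06 CPM in DMSO replicate 1 and 2.64 to 2.74 CPM in the other DMSO libraries. TO replicates 1 and 4 and DMSO replicate 1 were also the libraries that held the most extreme plastid levels overall.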

How the results depend on the processing

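The direction of the plastid median in PO against DMSO was below 0 in all 23 settings of the count test (−0.45 to −0.13), and that of PO against TO as well (−0.42 to −0.21), whereas that of TO against DMSO lay on both sides of 0 (−0.13 to 0.12). Scaling to the plastid protein-coding total moved the PO median to −0.13. The number of plastid loci called in PO against DMSO was 1 with DESeq2 and 0 in every edgeR setting, and in TO against DMSO it was 0 to 1 when each library was left out in turn, with the 1 called without TO replicate 1 (adjusted p = 0.0424). The number of plastid loci lower at an unadjusted p under 0.05 in PO against DMSO ranged from 11 to 42, and in PO against TO from 14 to 50. The number of plastid loci tested ranged from 50 to 125 over these settings. Shares of all loci at this unadjusted p were computed for the main setting only.

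The difference in plastid share of PO and DMSO was −0.438 to −0.300 percentage points when each library was left out in turn, each with an exact permutation p of 0.0571, the smallest that 3 against 4 libraries allow. Without the rRNA loci, an alternative added after the data had been seen, it was −0.0992 (exact permutation p = 0.143). With the rRNA loci left out of both shares, also added after the data had been seen, the correlation of plastid and mitochondrial share was 0.40 (permutation p = 0.196) instead of 0.90. The replicate numbers of the labels were also used as a replicate block. The deviations of same-numbered libraries from their group means had correlations of −0.149 to 0.229, so the numbers were not taken to pair the libraries. With the block the share difference of −0.361 had an exact sign-flip p of 0.125, the smallest that 4 pairs allow, edgeR called 0 plastid loci in all 3 comparisons, and the medians were −0.39, −0.03 and −0.31 for PO against DMSO, TO against DMSO and PO against TO.

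Among single loci, *clpP* passed in PO only with DESeq2 (adjusted p = 0.0476). Per length of the whole locus the DMSO level of *rps12* was 479 CPM per kilobase instead of 1170. At the depth of 41036335 to 63445014 counts, 9 of 34 plastid tRNA loci had too few counts to be tested.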
